A study of Mus musculus with 4 samples.

Results

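B lineage cells of the mouse olfactory mucosa were selected from 4 single-cell RNA libraries by a rule on marker counts. A cell barcode was taken when it had at least 500 detected genes, at most 10% of its UMIs in mitochondrial genes and at least 2 UMIs over Cd79a and Cd79b. It also had to hold no Cd3e UMI, at most 1 C1qa UMI, at most 15 Omp UMIs and at most 30 Cyp2g1 UMIs. UMIs are unique molecular identifiers and count captured RNA molecules. The rule took 52 of 39715 barcodes that passed the limits on genes and mitochondrial UMIs (41911 barcodes in all), with 9 and 11 from the libraries female 1 and 2, and 15 and 17 from male 1 and 2. The main olfactory epithelium was dissociated with papain and sequenced with 10x Genomics 5′ chemistry. All mice were wild type, of the strain C57BL/6J, and aged 3 months. There were 2 female and 2 male libraries, and no other treatment or genotype was compared. The labels do not say how many animals went into a library or whether libraries of a group came from separate animals, so p-values here measure only the spread between these libraries.

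B lymphocytes develop in the bone marrow in ordered stages. Pro-B cells rearrange the immunoglobulin heavy chain with the Rag1 and Rag2 recombinase, while Dntt adds bases at the joins. A finished heavy chain is first tested on the surface with a surrogate light chain, made of Vpreb1, Vpreb2 and Igll1, and the cell then divides before it rearranges a light chain. Cd79a and Cd79b form the signalling pair of both the pre-B cell receptor and the mature B cell receptor. The transcription factors Ebf1 and Pax5 set the B cell programme, and mature naive cells carry Ms4a1 (CD20), IgD and the IgE receptor Fcer2a. B cells also load peptides on MHC class II, with Cd74 as the invariant chain.

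Because the rule chose cells by their counts, every comparison of the selected cells with other barcodes of the same libraries is given as a description with no test. Cd79a, whose gene lies at chr7:24897381-24902197 on the plus strand (GRCm38), had 61, 120, 143 and 189 UMIs summed over the selected cells of the libraries, in the order female 1, female 2, male 1, male 2 that is kept from here on. Cd79b, at chr11:106311341-106314762 on the minus strand, had 54, 90, 101 and 143 UMIs. Ms4a1, at chr19:11249675-11266241 on the minus strand and the only marker of the cell type that the rule did not use, had 30, 28, 22 and 27 UMIs. All 3 genes were present in every library.

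The surrogate light chain gene Igll1 had 80 UMIs in the selected cells and 0 in all other Ptprc-positive barcodes. Its gene lies at chr16:16860671-16863985 on the minus strand of GRCm38, beside Vpreb1 at chr16:16868403-16870843. The 250 bases upstream of its start (RefSeq, GRCm38.p6, chr16:16863986-16864235, minus strand, written 5′ to 3′) are shown because of these counts. Igll1 was found in 7 of the 9 early-stage cells described below, a class that Igll1 itself helps to define. It was found in no other selected or Ptprc-positive barcode. Capitals mark the match to CACCTG, which is CAGGTG on the opposite strand. This is the kind of E-box known to be bound by E2A, a transcription factor of early B cells distinct from Ebf1.

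Igll1: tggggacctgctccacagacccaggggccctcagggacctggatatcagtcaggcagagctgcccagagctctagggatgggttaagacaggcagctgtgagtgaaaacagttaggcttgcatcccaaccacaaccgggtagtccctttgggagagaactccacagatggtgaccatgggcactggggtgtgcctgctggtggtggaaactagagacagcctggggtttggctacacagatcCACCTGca

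CAGGTG on either strand was present in 5657 of 32851 promoter windows of this length, or 17.2%. Among the early B genes it was present in 5 of 15 windows, those of Erg, Igll1, Rag1, Vpreb1 and Vpreb2 (10 of 11 genes matched the table, some with several starts). Among B lineage genes it was present in 7 of 15 windows. The Ebf1 core TCCCNNGGG, searched on both strands, was present in 5.60% of all windows, in 0 of 15 early windows and in 1 of 15 B lineage windows, that of Cd22. These are matches of letters and carry no measure of binding.

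The whole data set was deep and even across libraries. Total counts ranged from 100725429 to 111577458 UMIs per library. The median passing barcode held 8634 to 9502 UMIs. The selected cells were smaller, with medians of 4257, 4230, 3218 and 3026 UMIs, and the other Ptprc-positive barcodes had medians of 4805 to 5171. Counts of the selected cells summed to 53603, 50162, 62683 and 74497 UMIs per library. A doublet score called 747 to 836 barcodes per library, and none of the 52 selected cells was among them. The score compared barcodes with random pairs of passing barcodes. Such pairs seldom held a selected cell, so the score is a weak check on these cells. No selected barcode was selected in 2 libraries, and 5 selected barcodes also occurred as a barcode in another library, against 136 to 172 barcode sequences shared by each pair of libraries.

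The B cell label was borne out by further B cell genes in 41 of the 52 cells. Cd79a was present in 42 cells, which had 3 to 35 Cd79a UMIs (median 10.5) and 0 to 24 Cd79b UMIs (median 9). Of these, 41 carried at least 1 UMI of 7 further B cell genes (Ms4a1, Pax5, Cd37, Vpreb3, Pou2af1, Fcrla and Cd22), and 40 carried at least 2 of the genes. The exception, a cell of female 1 with 9114 UMIs, had 4 Cd79a UMIs, no Cd79b UMI and none of the 7 genes, and held 22 UMIs of the interferon-induced gene Bst2. The 7 genes were part of the 14 genes on the B lineage list that the rule did not use. They left out Spib, Blnk and Ralgps2, which cells without a Cd79a UMI also carried. Such cells held up to 4 of the 14 genes. The split by Cd79a was made after the values were seen.

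The 10 cells without a Cd79a UMI entered through Cd79b alone, with 2 to 5 UMIs (median 2.5). They were spread over the libraries, with 2, 3, 3 and 2 cells, and were deep, with 3218 to 15532 UMIs. They held 0 UMIs of Ms4a1, Pax5, Cd37, Ighm and Igkc and 0 UMIs of any immunoglobulin V gene, and 1 of the 10 had a single Vpreb3 UMI. Instead, Trpm5, a calcium-activated cation channel of chemosensory epithelial cells, was present in 9 of the 10 (0 to 12 UMIs, median 8.5) and in 0 of the 42 others. The actin regulator Avil had 1 to 19 UMIs (median 12), the leukotriene synthase Ltc4s 3 to 15 (median 8) and Rgs13, a regulator of G protein signalling, 1 to 27 (median 7.5). The epithelial genes Krt18 (7 to 50 UMIs) and Epcam (8 to 32 UMIs) were in all 10. These genes go against the B cell label for these cells, and they are called the cells without Cd79a below.

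**Figure D1:**
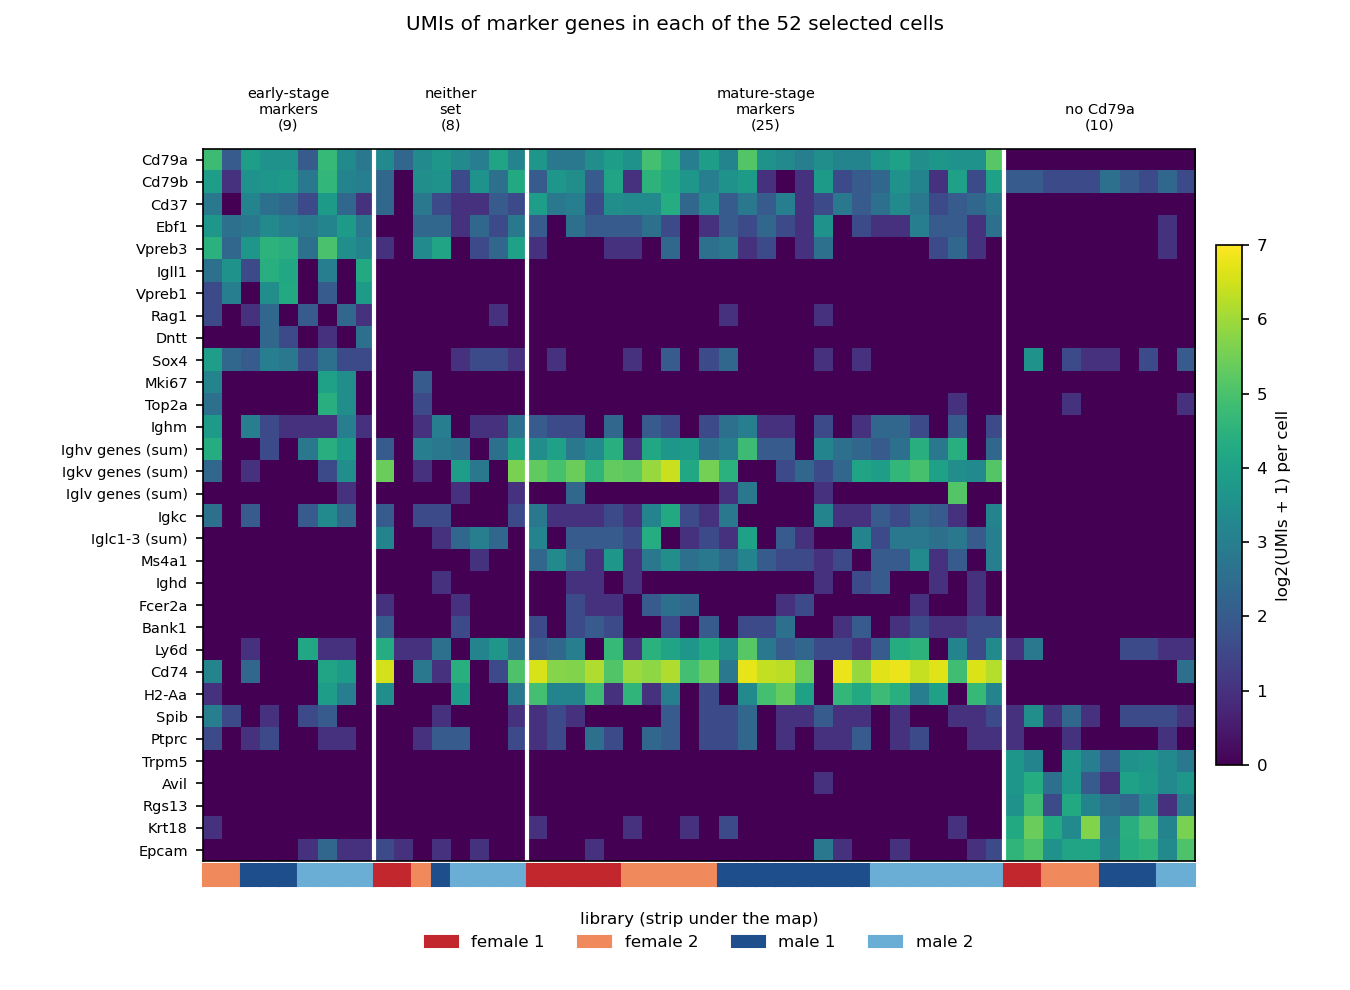
UMIs of marker genes (rows, colour as log2 of UMIs + 1) in each of the 52 selected cells (columns), ordered by marker class, with the strip under the map giving the library. The 10 cells without Cd79a at the right hold Cd79b, and Spib in 9 of them, but no Cd37, Ms4a1 or antibody gene, and carry Avil, Rgs13, Krt18 and Epcam, while the 9 early cells at the left hold Vpreb3, Ebf1 and Sox4 throughout.

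Spib, a transcription factor on the B lineage list, and the adaptor Blnk were shared by both kinds of cell. Spib was in 9 of the 10 cells without Cd79a, with 24 of the 68 selected-cell UMIs, and Blnk was in 8 of them. Barcodes just inside the limit of the rule were of the kind without Cd79a. The 5 barcodes with exactly 2 Cd79 UMIs included 0 with Cd79a, 4 with Trpm5 and 5 with Epcam, and the 3 barcodes with 3 Cd79 UMIs included 0 with Cd79a and 3 with Trpm5. Just outside, 78 barcodes had 1 Cd79 UMI, and these were mixed: 21 had Cd79a, 24 had Cd74, 5 had Cd37 and 1 had Ms4a1, while 39 had Trpm5 and 71 had Epcam. The rule's 6, 5, 3 and 6 further barcodes with at least 2 Cd79 UMIs failed one of the other limits.

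Selected cells were rare in every library. They were 0.0881% of passing barcodes in female 1 (exact 95% binomial interval 0.0403 to 0.167), 0.113% in female 2 (0.0563 to 0.202), 0.155% in male 1 (0.0869 to 0.256) and 0.169% in male 2 (0.0984 to 0.270). The means were 0.10% ± 0.0174 (SD, n = 2) for female and 0.162% ± 0.00962 (SD, n = 2) for male libraries. Both male libraries were above both female libraries, but the difference of 0.0617 percentage points had p = 0.333 in a two-sided exact permutation test, the smallest that 2 libraries against 2 allow. Adjusted over the 5 share comparisons made, the exact permutation p was 0.556.

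Among leukocytes, marked by the pan-leukocyte phosphatase Ptprc, the order was alike. Selected cells were 5.0%, 5.79%, 9.43% and 9.04% of selected plus other Ptprc-positive barcodes (with 171, 179, 144 and 171 others). The mean was 5.39% ± 0.558 (SD, n = 2) in female and 9.24% ± 0.277 (SD, n = 2) in male libraries. The difference was 3.84 points, again with an exact permutation p of 0.333 (adjusted 0.556), and the exact intervals of all 4 libraries overlapped. In droplets, a lower share of a type can come from fewer cells or from cells too shallow to pass, and these cannot be told apart here. Only 29 of the 52 selected cells had a Ptprc UMI themselves.

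**Figure D2:**
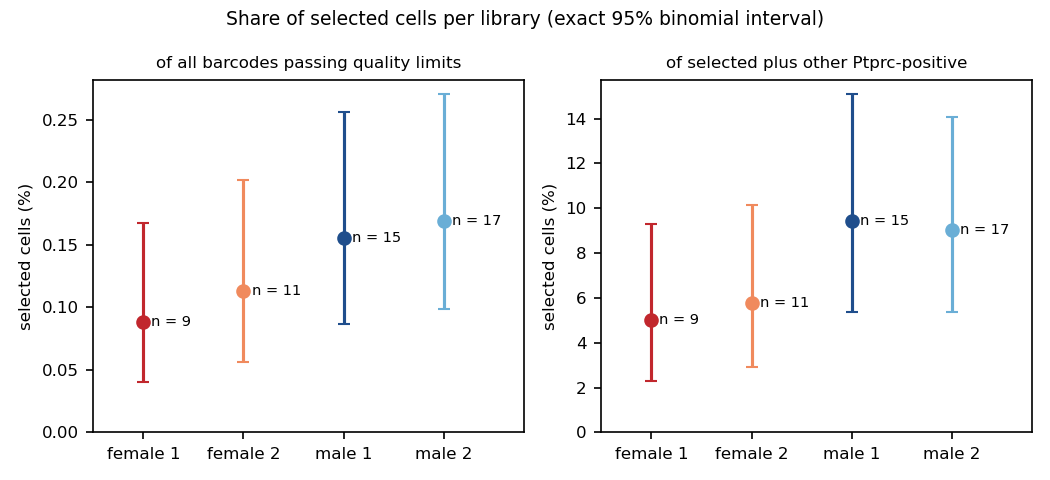
Share of selected cells (percent, y axis) in each library, of all passing barcodes at the left and of selected plus other Ptprc-positive barcodes at the right, with exact 95% binomial intervals that cover counting error only. The male libraries, with 15 and 17 cells, lie above the female libraries, with 9 and 11, and all intervals overlap.

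The 665 other Ptprc-positive barcodes served as the reference for levels. They were a mixture: at least 2 UMIs of C1qa, a complement gene of macrophages, were found in 82, 69, 64 and 69 of them, at least 10 UMIs of the neutrophil genes S100a8 and S100a9 in 16, 19, 20 and 30, and a Cd3e UMI in 26, 21, 8 and 17. A further 47, 70, 52 and 55 passed none of these limits and were not assigned to a type. Epithelial RNA was present too, with 1201 Epcam, 1297 Krt18 and 206 Trpm5 UMIs over the reference. Counts were summed per library and scaled to counts per 1000000 UMIs (CPM), and a gene was called when the ratio of CPM + 1 was at least 4-fold in all 4 libraries. Of 8906 genes with at least 50 UMIs, 38 were higher in the selected cells (0.427%) and 475 were lower (5.33%). The rule used this contrast, so these counts describe the cells and support nothing further.

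B cell genes made up much of the higher set. On the B lineage list, 9 of 14 genes with enough counts were at least 4-fold higher in every library, and none was lower; the list's median log2 ratio was 4.15 (3.94 from pooled counts with genes at 0 set to the floor of 3 counts, given in brackets for later lists), against 0.09 over all genes. Cd79b stood at 1583 ± 404 CPM (SD, n = 4) in selected cells and 12.7 ± 1.94 CPM in other barcodes. Cd37, a tetraspanin of B cells, had 43, 62, 50 and 62 UMIs and was at 917 ± 213 CPM against 140 ± 10.8 CPM (SD, n = 4 each), a median log2 ratio of 2.54. Its level in the others was well above 0, as other leukocytes also carry it.

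Further genes on that list differed more between libraries. Fcrla, an intracellular Fc receptor-like protein, had 4, 21, 17 and 19 UMIs. Vpreb3, which accompanies the assembling B cell receptor, had 3, 44, 85 and 83, so that female 1 stood well below the other 3. The scaffold Bank1 had 12, 5, 13 and 11 UMIs (median log2 ratio 3.51). Ebf1 had 14, 32, 51 and 68 UMIs with a median log2 ratio of 4.48, and missed the call because female 1 was at 1.66. Pax5 (16 UMIs in selected cells, 0 in others) and Pou2af1, a coactivator of octamer factors (32 against 3), had too few counts to enter.

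**Figure D3:**
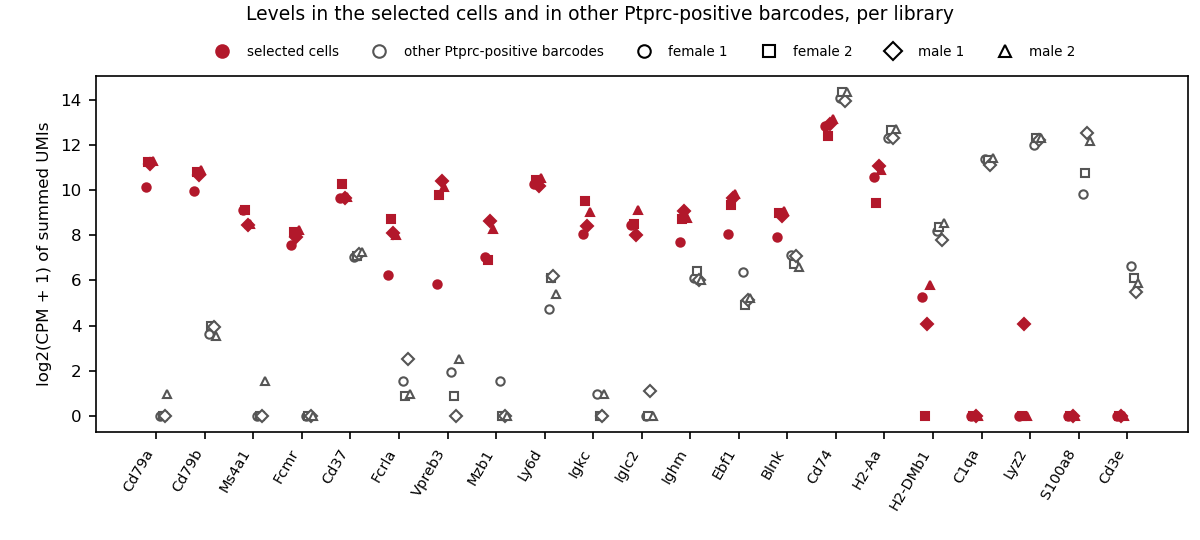
Log2(CPM + 1) of summed counts for 21 genes (x axis) in the selected cells (filled) and the other Ptprc-positive barcodes (open), with 1 symbol per library. Fcmr is at 0 in every open symbol, Vpreb3 is lowest in female 1 among the filled symbols, and C1qa, S100a8 and Cd3e are at 0 in every filled symbol.

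Genes of mature B cells were present in all libraries. On the mature B list 3 of 9 genes tested were called higher, none lower, and the median log2 ratio was 1.73 (1.82). They were Ms4a1, Cd55 and Fcmr, the receptor for IgM, which had 10, 14, 15 and 22 UMIs against 0. With 3 counts over the other barcodes as the floor, the pooled CPM of Fcmr was at least 347-fold higher. The complement regulator Cd55 was at 161 ± 54.8 CPM against 25.5 ± 3.16 CPM (SD, n = 4 each). Receptors for B cell survival and follicular homing had fewer counts than the test asked for: Tnfrsf13c, the BAFF receptor, had 40 UMIs against 7, the chemokine receptor Cxcr5 had 13 against 4, Fcer2a had 23 against 1 and the complement receptor Cr2 had 9 against 0. Among 15 tested homing and survival receptors, 0 were higher and 3 were lower, Ccr9, Tlr7 and Ly86, the partner of Cd180, with a list median of -0.14 that changed sign with genes at their bound (0.17) and without the cells that lacked Cd79a (0.32, with 2 genes lower).

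The early list had 0 calls in either direction among 5 genes tested, with a median log2 ratio of 2.49 (2.52). Igll1 had 0, 16, 39 and 25 UMIs and Vpreb1 0, 9, 28 and 16, so both missed a call only through female 1, where no cell carried them. Sox4, a transcription factor of progenitor cells, was at 357 ± 142 CPM against 60.9 ± 10.5 CPM (SD, n = 4 each). The plasma cell list (median 0.06, bracket value 0.11) had 1 of 6 genes called, Mzb1, a chaperone for antibody assembly that is also made in B cells before the plasma stage, with 7, 6, 25 and 23 UMIs against 2 in all others. Jchain, which joins secreted antibody, had 0 UMIs in the selected cells, and no cell exceeded 1 UMI over Jchain, Sdc1, Tnfrsf17 and Derl3. The germinal centre list had 0 genes higher and Mef2b lower among 5 tested (median 0.25, bracket value 0.14). All 92 Rgs13 UMIs and 14 of the 21 Bcl6 UMIs lay in the cells without Cd79a, and without those cells the list median was -3.67 with 3 of 5 genes lower, Rgs13, S1pr2 and Mef2b. The B-1 and marginal zone list had 0 of 5 in either direction (-1.53, bracket value -0.64). The cell cycle list had 0 of 10 in either direction (0.28, bracket value 1.74), and so had the 11 early activation genes (-0.88, bracket value -0.37). On the immunoglobulin list 3 of 4 constant genes were higher, Igkc, Iglc2 and Iglc3, with a median of 6.20 (7.13), while Ighm had a median log2 ratio of 2.50.

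Receptor signalling genes were mostly shared with other leukocytes. Of 17 tested genes of the pathway, 3 were higher and 0 were lower, with a median log2 ratio of 0.56 (0.55). The kinase Lyn was at 463 ± 94.6 CPM in selected cells and 405 ± 25 CPM in others, and Syk at 182 ± 66.9 against 176 ± 18.4 CPM (SD, n = 4 each). Blnk had a median log2 ratio of 2.0 without reaching 4-fold in each library. Cd81, a widely expressed tetraspanin, was on the lower side at a median of -1.25.

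MHC class II genes lay below the level of the other barcodes, many of which carry macrophage markers. The list median was -1.35 (-1.49). Of 10 tested genes 0 were higher and 1, the peptide-loading subunit H2-DMb1, was lower, at 26.7 ± 23.6 CPM against 304 ± 64.5 CPM (SD, n = 4 each). Cd74 was at 7401 ± 1522 CPM against 18655 ± 2478 CPM, a median log2 ratio of -1.2. H2-Aa was at 1572 ± 646 against 5860 ± 873 CPM (-1.77). H2-DMb2 and H2-Ob, which B cells carry, went the other way, with median log2 ratios of 1.30 and 2.90, and neither was called. These sums mix cells that had much Cd74 with cells that had none, as the stages below show.

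Genes of other leukocytes were at or near 0. Over all selected cells the macrophage list had 2 UMIs, the neutrophil list 2, the T and NK list 4 and the erythroid list 8. The macrophage list had 8 of 8 tested genes lower, the neutrophil list 5 of 7 and the T and NK list 4 of 7, with median log2 ratios of -10.38 (-7.17), -8.53 (-5.65) and -5.94 (-2.46). The rule itself limited C1qa and Cd3e. Macrophage genes summed to 0 to 18.7 CPM in the selected cells, against 13392 to 14290 CPM in the others, and neutrophil genes to 0 to 16.0 CPM against 2494 to 15652 CPM. T and NK genes summed to 0 to 47.9 CPM against 264 to 508 CPM. Of the plasmacytoid dendritic cell list, 1 of 6 was higher, Ly6d, which is also a B lineage gene, and 2 were lower, Siglech and Ccr9 (median -1.93, bracket value -0.12). The erythroid list had 0 of 3 in either direction (-1.25, bracket value -3.13). Outside the lists, the cytokine Il1b and the chemokines Ccl4, Cxcl2 and Ccl3 were among the genes of lowest ratio. Il1b and Ccl4, both at 0 UMIs in the selected cells, were at least 197-fold and 179-fold lower with 3 counts over all selected cells as the floor.

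Marker RNA of the surrounding epithelium was detected in both sets of barcodes, and 0 of 6 neuron and 0 of 6 sustentacular genes were called (medians -0.06 and -0.43, bracket values -0.07 and 0.32). Olfactory neuron markers summed to 1034 to 1516 CPM in the selected cells and to 904 to 1086 CPM in the others. Of the neuron genes, Gng13 alone was lower without the cells that lacked Cd79a, at a mean of 188 CPM against a pooled 440 CPM over all selected cells. Sustentacular markers, from the supporting cells of the epithelium, summed to 379 to 1732 CPM against 690 to 842 CPM. Of the 116 Sec14l3 UMIs in the selected cells, 78 lay in 1 cell. In the reverse direction, 20083 neurons with more than 15 Omp UMIs (median 9116 UMIs) held a Cd79a UMI in 0.120%, a heavy chain V gene in 0.0598% and Igll1 in 0.0249% of barcodes. Cd74 was less specific, with a UMI in 7.10% of neurons and 24.7% of 8427 sustentacular cells (median 15872 UMIs), and Vpreb3 had a UMI in 3.90% and 23.3%. Igkc, the kappa constant gene, had a UMI in 1.88% and 14.2%. Selected cells were at 80.8% for Cd79a, 67.3% for Cd74, 55.8% for Vpreb3 and 55.8% for Igkc, at a lower median depth than either background. One cell of male 1 with 12341 UMIs held 86 UMIs of the retinoic acid binding protein gene Crabp1, 45 of Tubb2b and 20 of the neuronal tubulin Tubb3, beside 1 Ms4a1 and 1 Ighd UMI, with no Cd74 UMI. The part of epithelial RNA in the levels was not tested.

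Outside the lists, the 20 genes with the highest ratios came from both kinds of cell. Siglecg, an inhibitory B cell lectin, had 45 UMIs against 26 in the others, and Fam129c had 60 against 5. Other genes of the 20, such as Sct, Avil, Lrmp and Sox9, followed the cells without Cd79a. All 38 Sct UMIs, 262 of 323 Lrmp UMIs and 97 of 100 Sox9 UMIs lay in those 10 cells. Without them 53 of 8803 genes were called higher (0.602%) and 747 lower (8.49%). The B lineage list then had 10 of 14 genes higher, with Ebf1 added, while Avil, Lrmp, Sox9, Myb, Bpgm and Akap12 were no longer called, and Sct, Ociad2, Ly6g6f and Folr1 were at 0 UMIs and called lower. Siglecg, Fam129c, Treml2, Aff3, Cdc25b, Bcar3, Gimap1, Gpat3 and Pde7a stayed higher.

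The selected cells fell into stages by marker counts. Early-stage cells had at least 2 UMIs over Igll1, Vpreb1, Vpreb2, Rag1, Rag2 and Dntt, and mature-stage cells at least 2 over Ms4a1, Ighd and Fcer2a. There were 9 early and 25 mature cells, no cell passed both limits, and 8 cells with Cd79a passed neither. These classes are ranges of a count and not cell types: 3 cells stood at 1 early UMI and 0 at 2, while 4 stood at 1 mature UMI and 6 at 2. The early sum reached 40 UMIs in a cell and the mature sum 15.

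Early cells were 0 of 9, 2 of 11, 3 of 15 and 4 of 17 selected cells by library, or 0%, 18.2%, 20.0% and 23.5%. The 0 of 9 cells allow a share of up to 33.3%, and the difference of 12.7 points between male and female means had an exact permutation p of 0.333 (adjusted 0.556). Mature cells were 55.6%, 45.5%, 53.3% and 41.2%, a difference of -3.25 points (exact permutation p = 0.667, adjusted 0.833). At a fixed depth of 1000 UMIs per cell, which all 52 cells reached, the cells with at least 1 early UMI were 0%, 9.09%, 26.7% and 23.5%, and with at least 1 mature UMI 55.6%, 27.3%, 53.3% and 35.3%. Early cells were present in 3 of 4 libraries and mature cells in all. All these shares and p-values are for the selected cells, with the cells without Cd79a in the denominator. Among only the cells with Cd79a, 0 of 7, 2 of 8, 3 of 12 and 4 of 15 by library were early. In the same cells 5 of 7, 5 of 8, 8 of 12 and 7 of 15 were mature. The early share was then equal in female 2 and male 1.

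Genes that did not define the classes also differed between them, given here as medians per 10000 UMIs of a cell. Vpreb3 was at 26.3 in early cells, where 9 of 9 carried it, and at 1.72 in mature cells, where 13 of 25 did. Ebf1 was at 19.8 in early and 7.33 in mature cells, and Sox4, in 9 of 9 early cells, at 10.3 and 0. Hmgb2 and Myb, genes of dividing and progenitor cells, were both at 6.58 in early and 0 in mature cells. Mzb1 was at 6.80 in early and 2.72 in mature cells.

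Class II genes ran the other way. Cd74 was at 202 per 10000 UMIs in mature cells, present in 24 of 25, and at 0 in early cells, present in 4 of 9. H2-Aa was at 31.1 in mature and 0 in early cells. The 8 cells with neither set had a Cd74 median of 11.7, with a UMI in 6 of 8, and the cells without Cd79a a median of 0, with 5 UMIs in 1 of 10. Naive B cell genes followed Cd74: Fcmr was in 22 of 25 mature cells (median 4.52), the homing receptor Ccr7 in 17 of 25 (3.74), and Bank1 had a median of 4.14. Ly6d was at 20.2 in mature, 13.8 in neither and 0 in early cells. The activation gene Cd83 had a median of 8.74 in mature cells, and 63 of the 68 Myc UMIs lay in 10 mature cells.

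Within the 9 early cells, 2 patterns were seen, split by an Igll1 limit of 10 chosen after the values were seen. In 4 cells Igll1 had 11, 20, 17 and 18 UMIs and Vpreb1 7, 10, 18 and 13. They came from female 2, male 1 (2 cells) and male 2. In all they held 2247, 3333, 3544 and 2496 UMIs, fewer than the cycling early cells below. Dntt, the polymerase of the pro-B stage, was present in 3 of these 4, none had 3 or more heavy chain V UMIs, none had a kappa V UMI and none was cycling. Rag1 had up to 4 UMIs among them. The part of depth in the missing V and cycle gene UMIs was not tested.

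The other 5 early cells had 0 to 7 Igll1 UMIs and looked different in their antibody genes. Of these, 4 had at least 3 heavy chain V UMIs, each led by a single gene: Ighv4-1 with 19 of 19 UMIs, Ighv8-8 with 13 of 13, Ighv1-26 with 6 of 6 and Ighv1-64 with 18 of 20. All 5 had Igkc, the kappa constant gene, while no early cell had an Iglc UMI. Of the 5, 3 were cycling, with 21, 25 and 47 UMIs over Mki67, Top2a, Birc5 and Cdk1 at 9707, 6731 and 11770 UMIs in all. One more cycling cell, with 5 such UMIs, had neither stage set. Cycling cells were 0%, 18.2%, 0% and 11.8% of the selected cells by library, and the difference between the sexes was -3.21 points (exact permutation p = 1). The conjugating enzyme Ube2c, of mitosis, had 51 UMIs, all in early cells.

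Immunoglobulin V genes gave a second view of the cells that the rule did not use. A B cell expresses 1 rearranged heavy chain and mostly 1 light chain, and 5′ libraries capture the V end of the transcript. The gene table held 185 heavy chain (VH), 160 kappa (VK) and 3 lambda (VL) V genes, and V genes within a family are similar enough that reads may be placed on a neighbour. In the selected cells 323 VH UMIs fell on 35 genes, 726 VK UMIs on 31 genes and 49 VL UMIs on 2 genes. In all 665 other Ptprc-positive barcodes there were 3 VH UMIs in 2 barcodes, 4 VK UMIs in 3 and 3 VL UMIs in 2, and none had 3 or more of a kind.

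Where V genes were counted, 1 gene held most of a cell's UMIs. No V UMI was found in 14 of the 52 cells. Of the 52 cells, 32 had at least 3 VH UMIs (6, 6, 8 and 12 by library), and in 28 of the 32 a single gene held at least 80% of them, with a median of 100%. The leading genes numbered 27, from 10 families, with 16 cells led by a gene of the Ighv1 family, the largest of the mouse. Ighv1-81, Ighv1-82, Ighv11-2, Ighv14-2 and Ighv9-3 each led 2 cells. At least 3 VK UMIs were found in 27 cells (6, 6, 4 and 11), led by 19 genes, of which Igkv1-117 and Igkv1-135 led 3 cells each. In 20 of the 27 one gene held at least 80%. The highest count was 86 UMIs of Igkv17-127 in a mature cell of female 2. Of 23 cells with at least 3 UMIs of each kind, all 23 had a different pair.

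A cell of male 2 joined Ighv11-2 (3 UMIs) with Igkv14-126 (14 UMIs), a pair known from B-1 cells of the peritoneum. It had 0 UMIs of the B-1 genes Cd5 and Bhlhe41, 4 of Plac8 and 3 of Ighd, so its other B-1 markers were absent or not specific at 4028 UMIs. The other Ighv11-2 cell, from female 2, had 13 UMIs of that gene with 11 of Igkv4-57-1. The heavy chain constant gene UMIs seen were almost all of unswitched isotypes, and cells without such a UMI show no isotype. Ighm had 98 UMIs in 31 cells (11, 21, 34 and 32 UMIs by library), Ighd 12 UMIs and Ighg2b 1, while Igha, Ighe, Ighg1, Ighg2c and Ighg3 had 0. A count of 0 in 240945 UMIs allows up to 12.5 CPM, taken as 3 counts.

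Light chain class by V genes and by constant genes gave different answers. By V genes, 26 of 29 cells with at least 3 light chain V UMIs were kappa (at least 80% of UMIs) and 1 was lambda. By constant genes, 31 cells with at least 3 UMIs split into 8 kappa, 8 lambda and 15 neither. The 26 cells that were kappa by V genes held 708 VK and 8 VL UMIs, but 83 Igkc and 99 Iglc UMIs, and 16 of the 26 had Iglc2. Of 18 cells with at least 3 Iglc UMIs, 4 had any VL UMI. Igkc had 14, 37, 21 and 39 UMIs by library, Iglc2 19, 18, 16 and 41, Iglc3 6, 5, 11 and 6, and Iglc1 6 in all. Some of the Iglc genes are close copies of each other, so the split of counts among Iglc1, Iglc2 and Iglc3 is uncertain. Why V and constant genes differ was not tested.

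**Figure D4:**
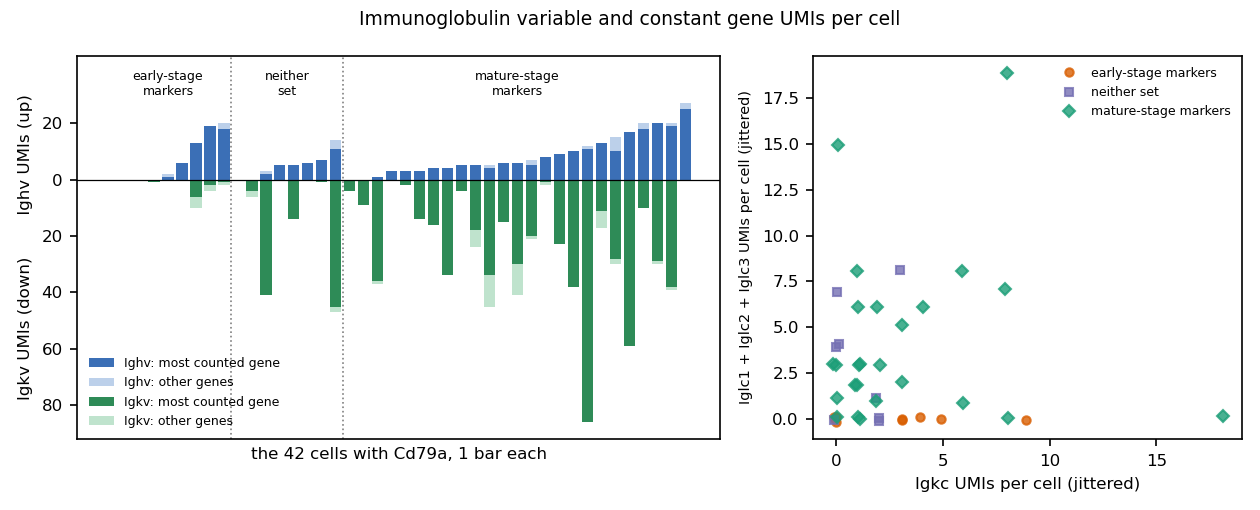
At the left, UMIs of VH genes (up) and VK genes (down) in each of the 42 cells with Cd79a, dark for the most counted gene and pale for the others, by marker class; at the right, Igkc against summed Iglc1 to Iglc3 UMIs per cell, with points jittered. Most bars are dark throughout, 5 of the 9 early cells have fewer than 3 VH and fewer than 3 VK UMIs, and early cells lie on the axis with no Iglc UMI.

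In 2 cells both light chain types had at least 3 V UMIs. A cell of male 2 had 34 VL and 10 VK UMIs and a cell of female 1 had 4 VL and 41 VK, and neither was called a doublet. The doublet score could hardly find a pair of selected cells, because its random pairs seldom joined them. Of the 42 cells with Cd79a, 4 had no V UMI of any kind, and 3 of these were early. The 3 cells with at least 3 lambda V UMIs were all led by Iglv1.

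Male and female selected cells were compared on counts summed per library with the edgeR quasi-likelihood test, and no gene passed. Of 1148 genes tested 0 had an adjusted p below 0.05 (0%), 81 had an unadjusted p below 0.05, and DESeq2 called 2. Among the 19 gene lists the edgeR count was 0 in each. The T and NK, macrophage, neutrophil and erythroid lists had 0 genes tested, so their count could not differ. The germinal centre list and the B-1 and marginal zone list had 1 gene tested each. The gene of lowest p was Igkv6-13 with 41, 34, 0 and 0 UMIs (edgeR log2 male to female change -8.48, SE 0.81, adjusted p = 0.128), all of it from 2 cells, with 41 UMIs in one female 1 cell and 34 in one female 2 cell. Igkv12-44 had 28, 60, 0 and 0 UMIs (edgeR adjusted p = 0.159), of which 59 lay in 1 cell of 3. Both values rest on 2 or 3 cells. Leaving out 1 library gave 3 genes (without female 1), 15 (female 2), 41 (male 1) and 32 (male 2) in edgeR, with the lone library of a sex assumed to vary like the other sex.

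The other genes of lowest p were seen in more cells. The stress-induced kinase Plk2 had 53, 48, 21 and 16 UMIs (log2 change -1.88, SE 0.40) in 21 cells, 112 of the 138 in cells without Cd79a, which were 22.2%, 27.3%, 20.0% and 11.8% of the selected cells. Myc had 27, 21, 7 and 13 UMIs (-1.72, SE 0.42) in 14 cells, and the ribosomal protein gene Rps21 66, 64, 136 and 174 (0.79, SE 0.20) in all 52 cells, each with an edgeR adjusted p of 0.677. For the markers themselves the edgeR log2 changes were 0.43 for Cd79a (SE 0.29), -0.70 for Ms4a1 (SE 0.36), 1.43 for Vpreb3 (SE 0.88) and 0.33 for Cd74 (SE 0.20), none near the threshold.

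Whether a sex difference was larger in the selected cells than in other Ptprc-positive barcodes was tested with a class by sex term over 8 sums. In edgeR 0 of 8447 genes passed (0%), with 351 at an unadjusted p below 0.05 and 0 in DESeq2. The lowest adjusted p in edgeR was 0.0934, for the globin gene Hbb-bs, which had 2, 2, 3 and 0 UMIs in the selected cells and 15, 30, 2980 and 8 in the others, so that a single male library of other barcodes carried it. Without female 1 the term called 12 genes, and without female 2 it called 83. Tubb2b and Crabp1 followed, with 45 of 69 and 86 of 98 selected-cell UMIs in the cell of male 1 with 12341 UMIs. The other barcodes differed too, with 301, 185, 39 and 83 Tubb2b UMIs and 425, 50, 22 and 27 Crabp1 UMIs. Leaving out 1 library, the log2 terms were at lowest 2.63 for Tubb2b and 2.51 for Crabp1. Krt8 and Tent5c followed too, with 205 of 210 and 22 of 22 UMIs in cells without Cd79a. On simulated counts, the same sex test recovered 54.7% of 4-fold changes, in 161 changed genes tested of 1074, and 97.0% of 8-fold changes. Those counts had a single fixed dispersion for all genes and no difference between libraries of a sex in their means. They do not give the power of the test on these sums of few and mixed cells.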

How the data were processed

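The authors deposited unnormalized UMI counts for each gene in each barcode, made with Cell Ranger; the submitters' processing notes name version 5.0.1 and mm10, and the matrix headers, per the file headers, version 6.0.2. Strand settings and read filters are not given in the sources used here. The features table lists 22399 genes, and 23 symbols occur more than once. Members and gene lists were chosen with earlier results of these data known. Counts were summed per library and class. Sums were tested with edgeR 4.0.16 (TMM, filterByExpr, quasi-likelihood, Benjamini-Hochberg at 0.05), with DESeq2 1.42.0 as alternative, in R 4.3.3, after checks on simulated data; shares used exact permutation tests in SciPy 1.17.1. Intervals and floors (3 counts) cover counting error only. Doublets were scored against simulated doublets and kept. Genes named were those of the 19 lists and, outside them, the 20 highest and 10 lowest ratios among calls in every library, and the 5 of lowest p where no gene passed. Alternatives changed the Cd79, mitochondrial, Ptprc, depth, filter and normalization settings. Libraries of a sex differed beyond sampling noise. No batch was analysed here. One gene of the lists is counted but not reported here.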

Additional observations from a re-analysis of the deposited data

How the results depend on the processing

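Of the settings tried for the main comparisons, 65 kept the call, 18 moved it and 5 reversed it. Genes past the threshold in the sex test were 0 with all libraries, 80 without the filter on low counts, 2 with DESeq2, 1 when fitted with the other Ptprc-positive sums, and 2 with cells that had a Cd79a UMI, a setting chosen after seeing the data. Leaving out 1 library gave 3 to 41 genes in edgeR (3 without female 1, 15 without female 2, 41 without male 1, 32 without male 2), where the lone library of a sex is assumed to vary like the other sex, so these counts rest on which library is left. The class by sex term gave 2 genes with at least 3 Cd79 UMIs, 1 at 5% mitochondrial UMIs, 1 at 2 Ptprc UMIs, 33 without Omp and Cyp2g1 limits on the others, 26 with Cd79a, 30 without a filter and 0 to 83 when leaving out a library (12 without female 1, 83 without female 2). The cause of these shifts was not tested. Genes at least 4-fold apart in every library numbered 513, 800 with Cd79a, 783 with at least 20 UMIs, 748 without Omp and Cyp2g1 limits on the others, 352 with 5 CPM added in place of 1, and 468 to 594 leaving out a library.

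The difference in mature share reversed to 2.90 points at 1000 UMIs per cell and ranged from -9.33 to 2.83 leaving out a library; that in cycling share ranged from -12.3 to 5.88. The difference in share of passing barcodes stayed positive in all settings (0.0494 to 0.0740 leaving out a library), as did that among Ptprc-positive barcodes (3.33 to 5.59) and that in early share (3.58 to 21.8). With the replicate block, replicate numbers of the labels pairing the sexes, edgeR called 0 genes. Deviations from the mean of each sex correlated at 0.10 between same-numbered libraries over 2554 genes. With 2 libraries per sex, both pairs give the same value, so it cannot decide whether same-numbered libraries were paired. The labels do not say whether they share more than a number. The kappa share by constant genes could not be compared, because female 1 had no cell called. With 9 to 17 cells a library, the number of cells limits every share here.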
